A study of Mus musculus with 4 samples.

Results

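The comparison set genes of Prom1+CD49f+CD45- cells from the liver of mice with alcoholic hepatitis against those of a library labelled Prom1+CD49f+CD45+. It took every gene with 10 or more counts in either library, which left 20914 of the 41128 genes in the count table. Prom1 (prominin 1, CD133) is a membrane protein of progenitor and duct cells, CD49f is integrin alpha 6, the product of Itga6, and CD45, the product of Ptprc, is a surface phosphatase of leukocytes. The labels give the purpose of the wider study as the fate and roles of Prom1+ cells in liver injury and cancer, and this comparison asks what differs between Prom1+CD49f+ cells without and with CD45 on their surface.

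All groups were C57BL/6 mice that took 40% of their calories from a high cholesterol and fat diet eaten freely and 60% from a liquid diet with alcohol given into the stomach, with a weekly binge on top. Every group carried this disease model, with no untreated animals, and the labels give neither age nor sex. The liver was digested with collagenase, hepatocytes were spun out at low speed, and CD45+ cells were removed with magnetic beads. The cells left, called presorted CD45- cells, were sorted on Prom1 and CD49f. The sorts were Prom1+CD49f+CD45-, its Prom1- counterpart (Prom1-CD49f+CD45-) and the one labelled Prom1+CD49f+CD45+, so that the last population came from cells already depleted of CD45. Each of the 4 populations is 1 library made from RNA of 2 mice pooled. There is no replicate on either side, so no difference between mice can be measured and no test was run.

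Levels are CPM, counts per 1e6 counts of a library, scaled by trimmed means of M-values (TMM, a scaling that centres most genes between libraries). Ratios carry an exact 95% interval that covers counting error only and treats each read as independent. Reads copied by PCR are not independent molecules, so the intervals can be too narrow even for counting error. A gene was called higher in a library when its whole interval lay beyond 2-fold. For a gene with 0 counts in 1 library the ratio was taken against a floor of 3 counts in that library and is written as "at least"; the exact interval, by which genes were called and ranked, reaches lower than this value. Below, "the CD45- library" is Prom1+CD49f+CD45-, "the labelled library" is the one labelled Prom1+CD49f+CD45+, and "the Prom1- sort" is Prom1-CD49f+CD45-. The presorted values come from the column headed CD45, which was matched by that name and because the other columns carry the numbers of the 3 sorts.

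Bile ducts are lined by cholangiocytes, epithelial cells joined by tight junctions and desmosomes that carry keratins 7, 8, 18 and 19 and change bile by moving salt, bicarbonate and water. Duct-like progenitor cells with Sox9, Epcam and Spp1 appear in ductular reactions of injured liver. Liver sinusoids are lined by a fenestrated endothelium without a dense basement membrane, which clears waste from the blood through scavenger and lectin receptors and depends on VEGF receptors and the factor GATA4. Epithelium and endothelium can both carry integrin alpha 6.

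The promoters of 3 genes are printed because they stand for the gate and the groups below. They are RefSeq windows on GRCm38.p6 of 250 bases that end just before the start site, 5' to 3' on the strand of the gene. Capitals mark matches to 5 motifs searched on both strands: the HNF1 half-site GTTAAT, the TEAD site GGAATG, the ETS site CAGGAAG, the AP-1 site TGACTCA and the GATA site AGATAA. Ptprc is a gene behind the gate, Ccn1 a YAP/TEAD target high in the CD45- library and Stab1 an endothelial gene high in the labelled library. Ccn1 and Stab1 were chosen because they hold a match. The RefSeq start of Ptprc lies 403 bases from the start of the gene in the GENCODE annotation, so its window lies inside the gene span given below.
Ptprc at chr1:138175306-138175555, minus strand: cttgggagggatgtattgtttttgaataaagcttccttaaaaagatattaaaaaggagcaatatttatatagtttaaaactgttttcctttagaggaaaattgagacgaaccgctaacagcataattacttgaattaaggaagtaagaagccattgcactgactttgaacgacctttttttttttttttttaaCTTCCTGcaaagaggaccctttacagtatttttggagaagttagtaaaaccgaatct
Ccn1 at chr3:145649986-145650235, minus strand: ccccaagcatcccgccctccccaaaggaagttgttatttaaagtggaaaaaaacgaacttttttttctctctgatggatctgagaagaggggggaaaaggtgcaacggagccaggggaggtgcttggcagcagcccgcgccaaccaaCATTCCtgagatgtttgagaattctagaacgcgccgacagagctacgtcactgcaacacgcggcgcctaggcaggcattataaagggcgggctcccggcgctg
Stab1 at chr14:31168642-31168891, minus strand: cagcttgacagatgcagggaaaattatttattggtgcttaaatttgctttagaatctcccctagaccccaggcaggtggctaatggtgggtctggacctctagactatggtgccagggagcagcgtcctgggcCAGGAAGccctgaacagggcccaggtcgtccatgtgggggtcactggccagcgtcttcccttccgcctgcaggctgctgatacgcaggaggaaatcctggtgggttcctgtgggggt

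In the Ptprc window the capitals mark an ETS match starting 57 bases before the start site, read on the opposite strand. Ccn1 has 1 TEAD match 103 bases before its start site, also on the opposite strand, and Stab1 has 1 ETS match at 117 bases. Of the compared genes, 13801 had such a window. The ETS letters were in 10.3% of all these windows, in 14.6% of the 1876 belonging to genes called higher in the labelled library and in 9.19% of the 1937 belonging to genes called higher in the CD45- library. The HNF1 half-site was in 4.90% of all windows, 5.83% of those of genes higher in the CD45- library and 3.68% of those of genes higher in the labelled library. For TEAD the 3 shares were 11.3%, 12.6% (higher in the CD45- library) and 11.3% (higher in the labelled library). For AP-1 they were 3.59%, 4.08% and 4.37%, and for GATA 7.26%, 6.97% and 6.93%, in the same order. A match is a string of letters and not a bound site.

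The labels were checked first against the genes behind the gate. Prom1, which lies on chromosome 5 from 43993620 to 44102032 of GRCm38, stood at 355 CPM in the CD45- library, 11.4 in the labelled library, 31.1 in the Prom1- sort and 67.1 in the presorted cells. The CD45- library was thus the highest and the labelled library the lowest of the 4, 31.04-fold (27.6 to 35.04) apart in counts of 12173 and 284. Although its label says Prom1+, the labelled library held 2.72-fold less Prom1 (2.34 to 3.17) than the sort labelled Prom1- and 5.87-fold less (5.19 to 6.65) than the presorted cells. Ptprc, on chromosome 1 from 138062861 to 138175708, stood at 6.33 CPM in the CD45- library, 14.5 in the labelled library, 3.602 in the Prom1- sort and 20.97 in the presorted cells. The labelled library was 2.297-fold (1.94 to 2.73) above the CD45- library, an interval that reaches below 2-fold, so Ptprc was not called. It was 4.04-fold (3.005 to 5.525) above the Prom1- sort. Ptprc was 1.44-fold lower in the labelled library (1.28 to 1.63) than in the presorted cells, from which CD45+ cells had been removed. The size of this gap depends on the TMM factors, 1.08 for the labelled library and 0.850 for the presorted cells. It is smaller without them, and other scalings were not run for this pair. Itga6, on chromosome 2 from 71745616 to 71858416, stood at 72.9 CPM in the CD45- library, 127 in the labelled library, 50.5 in the Prom1- sort and 110.4 in the presorted cells and was not called, at 1.74-fold (1.65 to 1.83) higher in the labelled library.

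**Figure D1:**
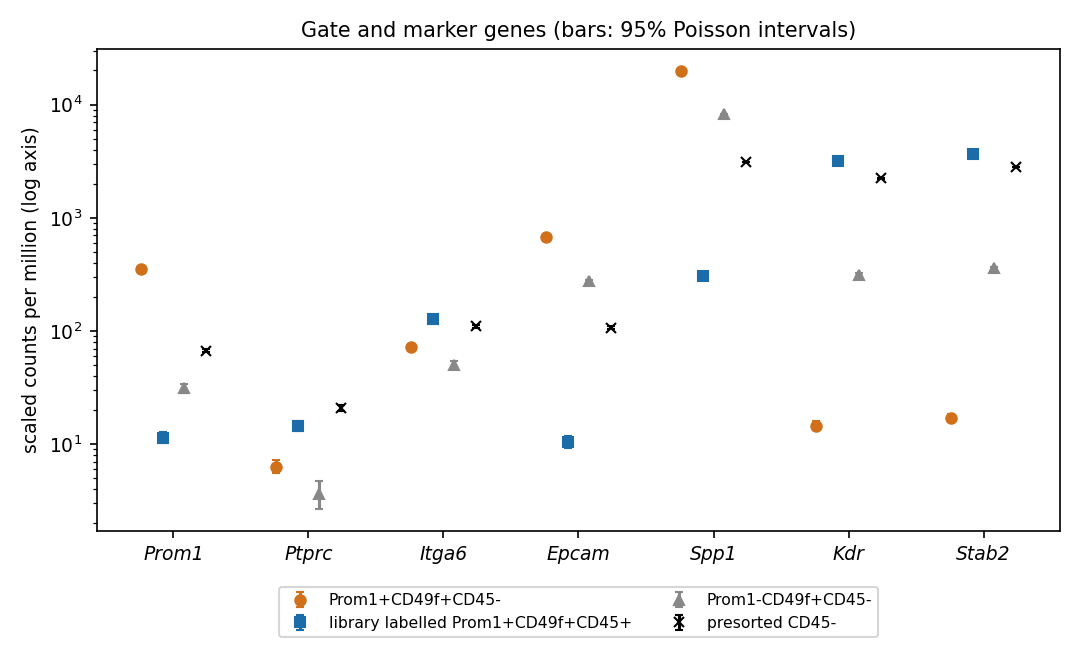
Levels of the 3 gate genes and of 4 markers in each of the 4 libraries, in CPM on a log axis; bars are exact 95% Poisson intervals, which cover counting error only. Prom1, Epcam and Spp1 are highest in the CD45- library and lowest in the labelled library; Kdr and Stab2 run the opposite way, and Ptprc in the labelled library (14.5 CPM) is below the presorted cells (20.97 CPM).

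The given markers put the 2 libraries on opposite sides. Epcam, an adhesion molecule of epithelium, stood at 670.2 CPM in the CD45- library, 10.4 in the labelled library, 274 in the Prom1- sort and 107 in the presorted cells, highest in the CD45- library and lowest in the labelled one. Kdr, the VEGF receptor 2 of endothelium, stood at 14.6 CPM in the CD45- library, 3176 in the labelled library, 315 in the Prom1- sort and 2229.9 in the presorted cells. Stab2, the hyaluronan scavenger receptor of liver sinusoids, stood at 17.1 CPM in the CD45- library, 3627 in the labelled library, 358 in the Prom1- sort and 2812 in the presorted cells. Both were lowest in the CD45- library and highest in the labelled library, 217-fold (199 to 238) and 212-fold (196 to 230.4) apart. Prom1 goes against the label of the labelled library beside each of the other 3. Ptprc goes against it beside the presorted cells only, by a gap that depends on the scaling. The genes of this library are described by their lists. Whether a label was exchanged was not tested. Because these are bulk RNA libraries, fewer cells of a type and less RNA per cell cannot be told apart.

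Library totals ran from 14670414 to 52294143 counts over the 4 libraries, with 30239681 in the CD45- library and 23070164 in the labelled one, and 19188 and 19280 genes reached 10 counts in these 2. The number of PCR cycles varied with input, from 6 to 10 or from 12 to 14, and which library had which is not given. Olfactory, vomeronasal and taste receptor genes, which liver cells are not known to need, had a count in 70.7% of 1398 genes in the CD45- library and 70.2% in the labelled library, against 28.0% in the Prom1- sort and 13.2% in the presorted cells. Their 95th percentile was 0.846 CPM in the CD45- library and 1.13 in the labelled library. Levels near 1 CPM in these 2 libraries are therefore near this background.

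Of the 20914 genes, 2711 (13.0%) were called higher in the CD45- library and 2818 (13.5%) higher in the labelled library, 26.4% in all. The interval lay within 2-fold either way for 8201 genes and included a ratio of 1 for 5982. Most genes were seen on both sides: 17554 had 10 or more counts in both libraries, 1634 only in the CD45- library and 1726 only in the labelled library. The largest ratios were not even between the sides. At 10-fold 815 genes lay wholly beyond in favour of the CD45- library and 711 in favour of the labelled library, at 30-fold 229 and 326, and at 100-fold 0 and 71. The median log2 ratio of all compared genes, CD45- over labelled, was -0.16. By level in the higher library, calls covered 11.7% of 4455 genes under 1 CPM, 27.7% of 8336 genes from 10 to 100 CPM and 75.8% of 132 genes at 1000 CPM or more. Nearest the bound on the CD45- side were Snapc4, called at 2.31-fold, and Ift88, not called at 2.29-fold. On the labelled side they were Bik, called at 2.25-fold, and Mtss1, not called at 2.16-fold. The call depended on the scaling for a few of the genes named here. With TMM over the 2 libraries Bik, Hbb-bs, Lats2, Id3 and Itih3 lost it. Bik also lost it with DESeq2 size factors and library totals, and Lats2 and Hbb-bs with library totals. Ift88 and Scd2 gained a call under all 3 of these scalings. The deposited normalized values are CPM with 1 added, which draws ratios of genes at low levels toward 1. With the deposited normalized values, taken as a ratio with no interval, Hbb-bs, Hba-a1, F11r, Bmp4, Loxl1, Cxcl1, Ccl20, Dlk1, Jun, Snapc4, Cd3e and Gzma lost it, while Ptprc, Itga6, Itgb1 and Mtss1 gained one. At the entry filter, 465 genes had exactly 10 counts in their higher library and 550 left out had 9.

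**Figure D2:**
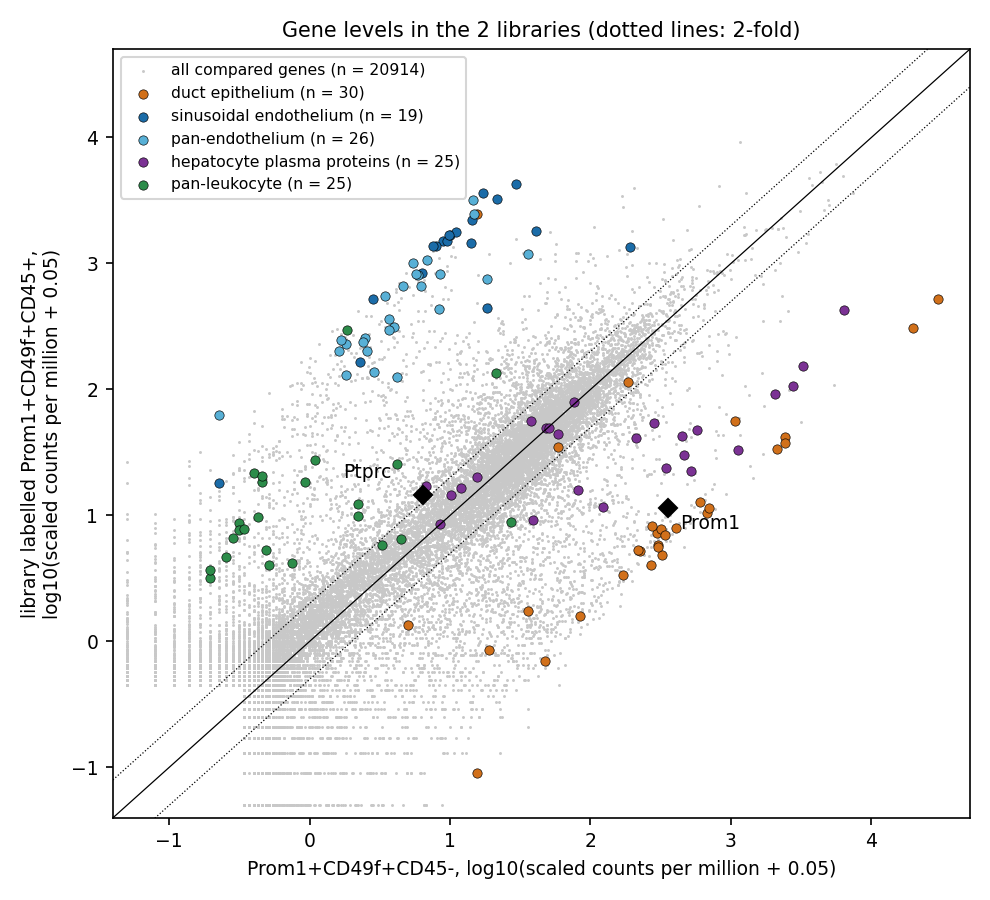
Level of each of the 20914 compared genes in the CD45- library (x) and the labelled library (y), log10 of CPM + 0.05, with 5 marker lists coloured and dotted lines at 2-fold. Duct markers lie in a band below the diagonal with Prom1, endothelial markers in a band above it, and the median log2 ratios of the duct and sinusoidal lists are 5.68 and -7.27.

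Duct epithelium genes filled the CD45- library. Of 30 members, all compared, 27 were called higher there and 1 higher in the labelled library, with a median log2 ratio of 5.68 against -0.16 over all genes. The members of this list and of those below were chosen with earlier results of these data known. Counts over the lists are therefore a description and not independent evidence. Clu, the secreted chaperone clusterin, stood at 29905 CPM in the CD45- library, 525 in the labelled library, 11342 in the Prom1- sort and 6632 in the presorted cells. It was 56.99-fold (56.02 to 57.99) higher in the CD45- library, where it held the most counts of any gene. Spp1, the secreted matrix protein osteopontin, stood at 19684 CPM in the CD45- library, 309 in the labelled library, 8188 in the Prom1- sort and 3103 in the presorted cells, 63.8-fold (62.3 to 65.2) higher. Both genes ran from high in the CD45- library through the Prom1- sort and the presorted cells to low in the labelled library. The 10 leading genes by count held 10.8% of the CD45- library and 5.51% of the labelled library.

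Simple-epithelium keratins, the filament proteins of duct cells, followed the same order. Krt8 stood at 2433 CPM in the CD45- library, 37.5 in the labelled library, 821 in the Prom1- sort and 466 in the presorted cells and its filament partner Krt18 at 2412 CPM in the CD45- library, 41.9 in the labelled library, 1199 in the Prom1- sort and 515 in the presorted cells. Krt19, at 301 CPM against 5.76, was 52.3-fold (44.3 to 62.1) higher, and Krt7, at 218 against 5.24, was 41.6-fold (35.01 to 49.9) higher. Of 10 keratin genes 7 were compared and 6 were called higher in the CD45- library, Krt23 at 53.5-fold (43.98 to 65.8) among them. Krt17, a keratin of basal and stressed epithelium, had the largest ratio bound of any gene that side, 222-fold (86.6 to 817), on 1228 counts against 4. Krt20 was not called, and Krt5, Krt14 and Krt15 were below 10 counts in both libraries, with 0 counts for Krt5 in both and 1 and 5 counts for Krt14 and Krt15 in the CD45- library.

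Cell junction genes were nearly all on the CD45- side: 27 of 31 were called higher in the CD45- library and 1 lower, with a median of 5.05. Cdh1, E-cadherin, stood at 2132 CPM in the CD45- library, 33.8 in the labelled library, 183 in the Prom1- sort and 373 in the presorted cells and was 63.1-fold (58.9 to 67.6) higher. Desmoglein 2, the desmosomal cadherin gene Dsg2, fell from 1684 CPM to 30.5, and the claudin gene Cldn3 from 408 to 7.896. Some members differed less or ran the other way. Tjp1, the tight junction scaffold ZO-1, was 2.76-fold (2.66 to 2.86) higher in the labelled library, and F11r, junctional adhesion molecule A, was only 2.17-fold (2.11 to 2.24) higher in the CD45- library.

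Genes for duct transport were less uniform, with 14 of 22 compared members higher in the CD45- library, 3 lower and a median of 2.88. The sodium pump subunit gene Atp1b1 was 46.98-fold (42.1 to 52.5) higher and the sodium-glucose transporter gene Slc5a1 59.3-fold (51.5 to 68.6) higher. The bile salt exporter gene Abcc3 was 6.79-fold (6.36 to 7.25) higher. The secretin receptor gene Sctr (15.3 against 0.242 CPM) and the chloride channel gene Cftr (36.01 against 1.69 CPM), named after their values were seen, were on the same side. Aqp1, a water channel of both duct and endothelial membranes and the 1 duct marker called the other way, stood at 15.4 CPM in the CD45- library, 2487 in the labelled library, 714 in the Prom1- sort and 1928 in the presorted cells. It was 161-fold (148 to 176) higher in the labelled library. Abcc4 (5.15-fold (4.84 to 5.48)) and the calcium-activated channel regulator gene Clca3a1 (29.5-fold (24.6 to 35.7)) were the other 2 higher there.

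Progenitor and tumour-initiating genes were on the CD45- side in part. Of 22 members, 8 were called higher in the CD45- library and 3 higher in the labelled library. Over all compared genes these shares were 13.0% and 13.5%, so the 3 are near the share of all genes. The median was 0.57, or 1.81 over members with 50 or more counts. The duct and progenitor factor Sox9 stood at 693 CPM in the CD45- library, 11.4 in the labelled library, 95.5 in the Prom1- sort and 91.6 in the presorted cells, 60.6-fold (53.9 to 68.3) higher in the CD45- library, and the surface glycoprotein gene Cd24a was 25.2-fold (23.2 to 27.5) higher. Cd47, the "do not eat me" ligand, went the other way at 2.298-fold (2.24 to 2.35), as did Klf4 at 5.17-fold (4.61 to 5.82). Dlk1, a fetal liver marker, was also called that way, on levels of 0.0292 and 0.443 CPM that lie under the chemosensory background. Myc, at 131 CPM in the CD45- library and 86.6 in the labelled library, was not called. The fetal hepatocyte gene Afp, at 1.05 and 0.725 CPM, and the Wnt-responsive stem cell gene Lgr5, at 2.42 and 4.51, were not called either. Both are named after their values were seen.

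Duct markers were low but present in the labelled library. The 27 members called higher in the CD45- library, which leaves out Aqp1 and 2 members not called, stood there at 0.258% to 25.8% of their level in the CD45- library. The median was 1.91%, with quartiles of 1.58% and 2.41%, and 22 of 27 stood at 3% or less. The call itself sets an upper limit on these percentages. Summed over the list, duct marker levels were 63499 CPM in the CD45- library and 3753 in the labelled library, of which Aqp1 alone gave 2487. The Prom1- sort had 24505 and the presorted cells 14336. In 29 of the 30 members, all but Aqp1, the labelled library was below the presorted cells. The same held for all 32 ribosomal protein and all 13 mitochondrially encoded genes, and the share over all genes was not counted.

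Further genes led the CD45- side, by distance of the interval from 1. Ankrd1, a nuclear YAP target, stood at 459.8 CPM in the CD45- library, 5.52 in the labelled library, 119 in the Prom1- sort and 22.1 in the presorted cells and was 83.3-fold (70.4 to 99.3) higher. Scara3, a scavenger receptor of oxidative stress, stood at 1435 CPM in the CD45- library, 19.7 in the labelled library, 169 in the Prom1- sort and 237 in the presorted cells, 72.8-fold (66.6 to 79.8) higher. Fstl3 (follistatin-like 3, an activin antagonist; 148-fold (80.1 to 308)), the bradykinin B2 receptor gene Bdkrb2 (281-fold (77.4 to 2322)), Gpr39, a zinc receptor (109.5-fold (66.3 to 196)), and the glutathione enzyme gene Ggt1, with 535 counts against 1, belong to the same group. Tuft1 (88.1-fold (65.99 to 121)), Plet1 (68.8-fold (61.2 to 77.8)), Bex1 (103-fold (61.4 to 189)) and Plekhs1 (148-fold (67.96 to 405)) complete it apart from Dok7. Dok7 had 297 counts in the CD45- library and 0 in the labelled library, at least 71.7-fold higher. Mgat3, an N-glycan branching enzyme, and the trefoil peptide gene Tff2 were also at 0 counts in the labelled library, at least 55.8-fold and 53.4-fold higher.

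Endothelial genes filled the labelled library. All 19 compared sinusoidal markers of 20 were called higher there, at a median log2 ratio of -7.27, and all 26 pan-endothelial markers, at -6.74. Ehd3, an endocytic protein of sinusoidal endothelium, stood at 29.3 CPM in the CD45- library, 4291 in the labelled library, 752 in the Prom1- sort and 3457 in the presorted cells and was 147-fold (138 to 156) higher. Clec4g, a sinusoidal lectin, stood at 21.5 CPM in the CD45- library, 3262 in the labelled library, 1932 in the Prom1- sort and 2464 in the presorted cells, 152-fold (141 to 163) higher. In both, and in 18 of the 19 sinusoidal markers, the labelled library was above the presorted cells, and in all 19 the CD45- library was the lowest of the 4. Ctsl, a lysosomal protease found in many cells, was the exception to the first count.

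Of the general endothelial genes, Ptprb, the phosphatase of VE-cadherin and Tie2, stood at 14.6 CPM in the CD45- library, 2478 in the labelled library, 920.4 in the Prom1- sort and 1397 in the presorted cells, 169-fold (155 to 185) higher in the labelled library. Eng, the TGF-beta co-receptor endoglin, was 186-fold (161 to 216) higher, and Egfl7, a secreted endothelial protein, 33.5-fold (31.6 to 35.5) higher. Erg, an ETS factor of endothelial identity, had 1561 counts against 6 and was 359-fold (165 to 980.3) higher. Gata4, the factor that sets the sinusoidal type, stood at 2.801 CPM in the CD45- library, 527 in the labelled library, 152 in the Prom1- sort and 423 in the presorted cells, 188-fold (154 to 232) higher. Oit3 (175-fold (155 to 198)), Adgrf5 (176-fold (156 to 199)), the plexin gene Plxnc1 (184-fold (163 to 209)) and Cyp4b1 (170.2-fold (152 to 191)) were among the 15 farthest from 1 on this side. So were Ushbp1 (194-fold (154 to 247)), Serpina3f (208-fold (156 to 282)) and Tmem132e (199-fold (151 to 266)). Of the 2 endothelial lists' windows, the ETS letters were in 3 of 12 sinusoidal and 5 of 13 pan-endothelial ones, Stab1 as printed above, and in 3 of 21 duct windows.

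Genes of larger vessels followed only in part. Of 18 vein and artery markers 12 were called higher in the labelled library and 6 were not called, at a median of -3.78. Gja4, a gap junction protein of arteries, stood at 9.395 CPM in the CD45- library, 878 in the labelled library, 1685 in the Prom1- sort and 686 in the presorted cells and Thbd, thrombomodulin, at 3.997 CPM in the CD45- library, 322 in the labelled library, 217 in the Prom1- sort and 227 in the presorted cells. The arterial Notch ligand gene Dll4 was 114-fold (91.5 to 145) higher and the matrix gene Ltbp4 24.8-fold (23.6 to 26.2) higher. Cd9, a tetraspanin of many cells, was not called at 436 and 304 CPM. In 4 of the 18 the labelled library was above the Prom1- sort, against 18 of 26 of the pan-endothelial markers and 19 of 19 of the sinusoidal ones. The lymphatic list was mixed, with 4 of 9 higher in the CD45- library and 2 lower. Its member Prox1, also a factor of liver epithelium, stood at 345 CPM in the CD45- library, 7.69 in the labelled library, 35.7 in the Prom1- sort and 61.98 in the presorted cells, while Ccl21a, the chemokine of lymphatic endothelium, was highest in the Prom1- sort at 2473 CPM against 5.66 and 6.89. Flt4, VEGF receptor 3, was 103-fold (93.9 to 113) higher in the labelled library. Reln (3.25-fold (2.79 to 3.796)), Sned1 (5.596-fold (4.45 to 7.11)) and Pdpn (8.39-fold (5.24 to 14.2)) were higher in the CD45- library and Fgl2 (9.32-fold (6.24 to 14.4)) in the labelled library.

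The CD45- library held little endothelial RNA. The 19 sinusoidal markers stood there at 0.472% to 14.3% of their level in the labelled library, at a median of 0.650%, with 15 at 1% or less. The 26 pan-endothelial markers stood at 0.278% to 3.28%, at a median of 0.937%, with 16 at 1% or less. Summed levels of the sinusoidal list were 424 CPM in the CD45- library, 30883 in the labelled library, 8505 in the Prom1- sort and 23700.0 in the presorted cells. By this sum the labelled library was closer to the presorted cells than to either other sort.

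**Figure D3:**
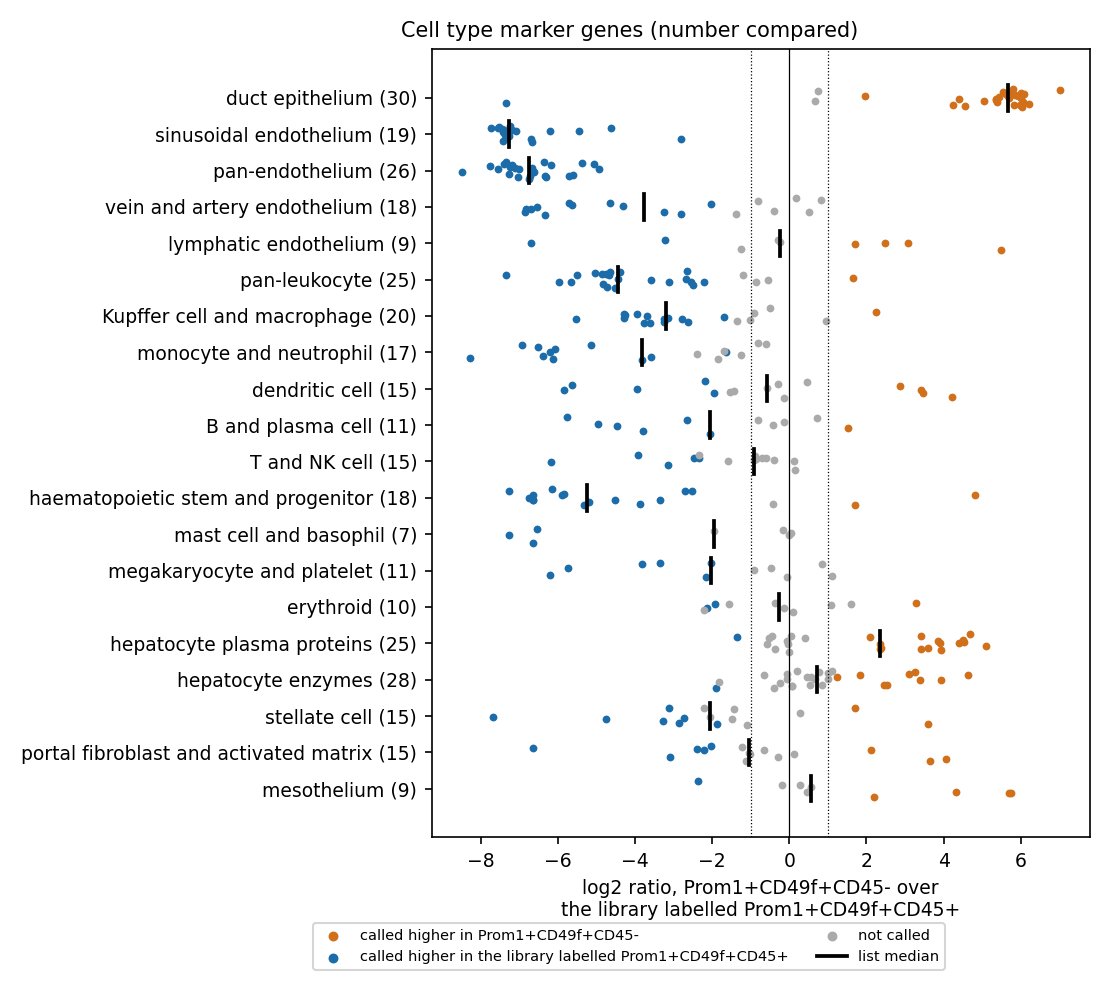
Log2 ratio of each compared member of the cell type lists, CD45- over labelled, with the number of members compared in brackets; points are genes, coloured by call, black bars are list medians and dotted lines mark 2-fold. All 19 sinusoidal and 26 pan-endothelial points lie left of -2, and 27 of the 30 duct points are called on the right.

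Leukocyte genes other than Ptprc were mostly on the side of the labelled library, and most stood below the presorted cells. Of 25 pan-leukocyte markers, Ptprc included, 21 were called higher in the labelled library and 1 lower, at a median of -4.43. The median was -2.52 with the deposited normalized values. The labelled library exceeded the presorted cells in 5 of 25 and the Prom1- sort in 25 of 25. Standing below the presorted cells was not particular to leukocyte genes, since all 32 ribosomal protein genes did so too. The share over all genes was not counted. Summed levels were 79.5 CPM in the CD45- library, 684 in the labelled library, 186 in the Prom1- sort and 959 in the presorted cells. As a share of unscaled counts the list held 0.0736% of the labelled library and 0.0815% of the presorted cells. Arhgap45 gave 294 CPM of the labelled library's sum and 206 of the presorted cells', and the actin bundler gene Lcp1 gave 135 and 181. None of the 25 was at 0 counts in either library. Laptm5, a lysosomal protein of blood cells, was 26.4-fold (18.9 to 37.99) higher, Rac2 6.22-fold (5.18 to 7.52) higher and the B cell tetraspanin gene Cd37 62.4-fold (35.4 to 121) higher. The phosphatase gene Ptpn6 was called the other way, 3.13-fold (2.695 to 3.64) higher in the CD45- library.

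Among leukocyte types, myeloid granule genes were called. In the monocyte and neutrophil list 11 of 17 compared members were called higher in the labelled library and none lower. Mpo, myeloperoxidase, stood at 7.44 CPM in the CD45- library, 552 in the labelled library, 48.7 in the Prom1- sort and 980.3 in the presorted cells and Elane, neutrophil elastase, at 2.597 CPM in the CD45- library, 181 in the labelled library, 22.5 in the Prom1- sort and 318 in the presorted cells. Both were highest in the presorted cells and next in the labelled library, where they were 74.2-fold (65.5 to 84.3) and 69.5-fold (56.4 to 86.7) above the CD45- library. Ngp (120.5-fold (67.04 to 242)), Ly6c2 (35.3-fold (24.2 to 53.5)) and Plac8 (14.03-fold (11.8 to 16.8)) followed, and Ly6g was at 0 counts in the CD45- library and below 10 in the labelled library. Cxcr2, a chemokine receptor, was not called and was higher in both libraries, at 29.3 and 44.2 CPM, than in the presorted cells at 2.21.

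Kupffer cell and macrophage markers were called higher in the labelled library in 14 of 20 and lower in 1. All 20 stood below the presorted cells in the labelled library, as did all 32 ribosomal protein genes. The lysozyme gene Lyz2 stood at 3.06 CPM in the CD45- library, 59.6 in the labelled library, 29.4 in the Prom1- sort and 269 in the presorted cells, and the complement gene C1qb was 45.9-fold (33.6 to 64.6) higher in the labelled library. The iron exporter gene Slc40a1, which endothelium and other cells share, was not called at 225 and 316 CPM. Csf1r, the receptor for the macrophage growth factor CSF1, was 4.75-fold (4.29 to 5.29) higher in the CD45- library, at 79.1 CPM in the CD45- library, 16.6 in the labelled library, 16.9 in the Prom1- sort and 99.9 in the presorted cells. Summed levels of this list were 331 CPM in the CD45- library, 567 in the labelled library and 1819 in the presorted cells.

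Lymphocyte lists had low summed levels in both libraries. Of 11 compared B and plasma cell genes 6 were called higher in the labelled library and 1 lower, with summed levels of 29.7 and 39.1 CPM. The immunoglobulin genes Igkc, at 0.0875 and 4.71 CPM, and Ighm, with 0 counts against 2.74 CPM, were lowest in the CD45- library. Ly6d was higher in the CD45- library at 2.85-fold (2.29 to 3.58). Of 15 T and NK cell genes 5 were called higher in the labelled library and none lower. Nkg7, a granule gene of cytotoxic cells, at 16.8 CPM in the labelled library, gave the largest share of that list's 45.8 CPM. The T cell receptor genes Cd3e and Trac and the granzyme gene Gzma were at 0 counts in the CD45- library. Cd3e was called on 11 counts in the labelled library, 0.443 CPM, which lies under the chemosensory background. The calls of Cd3e and Gzma were lost with the deposited normalized values.

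Dendritic cell genes were divided by class. The 4 MHC class II genes of the list, Cd74 (18.5-fold (17.4 to 19.7)), H2-Ab1 (10.6-fold (9.72 to 11.5)), H2-Aa (7.31-fold (6.41 to 8.37)) and H2-Eb1 (11.04-fold (9.65 to 12.7)), were called higher in the CD45- library. Cd74, the invariant chain, stood at 804 CPM in the CD45- library, 43.4 in the labelled library, 542 in the Prom1- sort and 315 in the presorted cells, highest in the CD45- library and lowest in the labelled library. Bst2 (4.56-fold (4.32 to 4.82)), Zbtb46 (15.4-fold (14.1 to 16.9)) and Irf8 (49.1-fold (39.6 to 61.6)) were among the 5 called higher in the labelled library. Itgax, which encodes CD11c, and Ccr7 were at 0 counts in the CD45- library and below 10 in the labelled library. The class II genes thus moved against most pan-leukocyte genes, though Ptpn6 and Csf1r were higher in the CD45- library as well.

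Blood progenitor genes were called higher in the labelled library in 15 of 18 and lower in 2, at a median of -5.25, or -3.26 with the deposited normalized values. Several are endothelial genes as well, and Cd34 is on the pan-endothelial list. Kit, the stem cell factor receptor, stood at 4.06 CPM in the CD45- library, 622 in the labelled library, 41.2 in the Prom1- sort and 431 in the presorted cells, 153-fold (129.8 to 183) higher in the labelled library. Ly6a, which encodes Sca-1, stood at 23.02 CPM in the CD45- library, 337 in the labelled library, 3286 in the Prom1- sort and 299.7 in the presorted cells, highest in the Prom1- sort. Lmo2 (70.7-fold (53.9 to 94.6)) and Mecom (39.9-fold (31.9 to 50.4)) were on the same side, and Angpt1 (28.1-fold (22.9 to 34.7)) and Hlf (3.26-fold (2.43 to 4.44)) were higher in the CD45- library. Mast cell (3 of 7) and megakaryocyte genes (6 of 11) were also called higher in the labelled library with none lower. Those 3 mast cell calls were Kit, Gata2 and Hdc, while Ms4a2, Cpa3 and Fcer1a were not called at or under 1.37 CPM in both libraries. Platelet factor Pf4 was not called at 2.83 and 2.94 CPM, whereas the endothelial genes Vwf (4.11-fold (3.73 to 4.54)) and Clec1b (73.8-fold (58.8 to 93.9)) were.

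**Figure D4:**
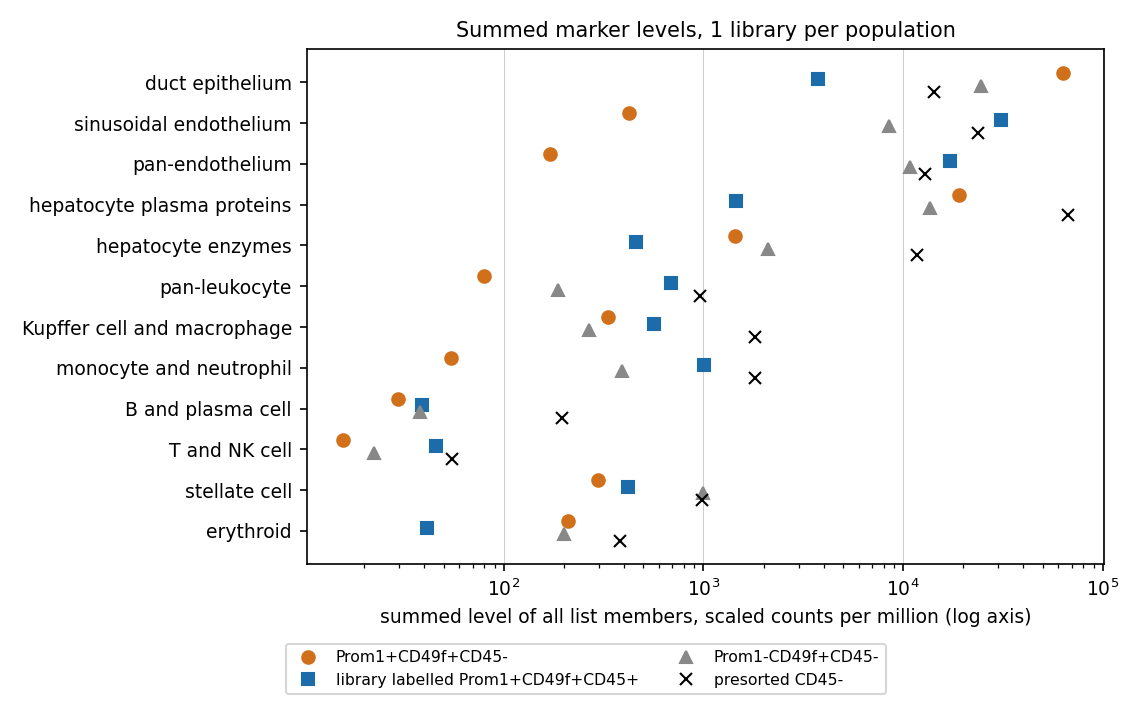
Summed level of all members of 12 cell type lists in each of the 4 libraries, 1 library per population, in CPM on a log axis. The CD45- library is highest in duct markers (63499 CPM), the labelled library in sinusoidal (30883 CPM) and pan-endothelial markers, and the presorted cells in all 5 leukocyte lists shown. For T and NK cell genes this order depends on the scaling. Their share of unscaled counts is 0.00492% in the labelled library and 0.00469% in the presorted cells.

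Many hepatocyte plasma protein genes, but not all, were higher in the CD45- library. Of 25 such genes 15 were called higher there, 1 lower and 9 not, at a median of 2.36. Alb, albumin, stood at 3241 CPM in the CD45- library, 153 in the labelled library, 1266 in the Prom1- sort and 5267 in the presorted cells and Trf, transferrin, at 6408 CPM in the CD45- library, 425 in the labelled library, 3497 in the Prom1- sort and 18473 in the presorted cells. Both were highest in the presorted cells and lowest in the labelled library, and they were 21.2-fold (20.5 to 21.9) and 15.1-fold (14.8 to 15.4) higher in the CD45- library than in the labelled one. C3 (25.9-fold (24.9 to 26.9)), Ahsg (22.5-fold (21.6 to 23.5)) and Ambp (33.98-fold (31.7 to 36.5)) were also higher, and Itih3 was 2.54-fold (2.16 to 2.99) higher in the labelled library. The apolipoprotein genes Apoa1 (48.3 and 49.3 CPM), Apoa2 (50.5 and 49.03 CPM) and Apoc3 (8.49 and 8.50 CPM), named after their values were seen, were not called. Hpx, named likewise, was not called at 37.4 and 56.2 CPM, against 4609.6 in the presorted cells. Summed over the list, levels were 19001 CPM in the CD45- library, 1462 in the labelled library, 13689 in the Prom1- sort and 67117 in the presorted cells.

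Hepatocyte enzymes were called higher in the CD45- library in 9 of 28 and lower in 1, at a median of 0.73, and 18 were not called. The hepatocyte factor gene Hnf4a was 15.3-fold (12.9 to 18.4) higher and Tat 5.77-fold (5.08 to 6.58) higher. Glul, glutamine synthetase, was 3.74-fold (3.51 to 3.98) higher in the labelled library. The summed level of the list was 1441 CPM in the CD45- library and 461 in the labelled library, against 11789 in the presorted cells. Cp, ceruloplasmin, which is among the 10 genes with the most counts in the CD45- library, stood at 5455 CPM in the CD45- library, 109 in the labelled library, 861 in the Prom1- sort and 1980.0 in the presorted cells and was 50.2-fold (48.3 to 52.1) higher. In contrast to Alb and Trf, Cp was higher in the CD45- library than in the presorted cells.

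Mesenchymal lists were split by gene. Summed levels of the stellate and portal fibroblast lists were lower in both libraries than in the presorted cells. The mesothelial sum was 1113 CPM in the CD45- library, 423 in the labelled library and 679 in the presorted cells. Stellate cell genes were called higher in the labelled library in 7 of 15 and lower in 2, with Hgf, hepatocyte growth factor, at 1.11 CPM in the CD45- library, 228 in the labelled library, 27.3 in the Prom1- sort and 185 in the presorted cells, 206-fold (149.6 to 291) higher, and Ecm1 at 26.7-fold (22.4 to 32.2). Lrat, the retinyl ester enzyme of stellate cells, stood at 1.66 CPM and 14.4 CPM, against 37.4 in the presorted cells. Rgs5 was 12.1-fold (11.1 to 13.3) higher in the CD45- library. Portal fibroblast genes were called higher in the labelled library in 5 of 15, Cd34, Pi16 (8.46-fold (6.85 to 10.5)) and Col3a1 (5.24-fold (3.85 to 7.23)) among them, and in the CD45- library in 3, namely Entpd2 (16.6-fold (13.9 to 20.1)), Fbln2 (4.31-fold (3.71 to 5.04)) and Loxl1 (12.6-fold (4.06 to 62.8)). Col3a1 stood at 1.55 and 8.098 CPM against 224 in the presorted cells. Of 9 mesothelial genes 4 were called higher in the CD45- library, Efemp1 (53.9-fold (46.4 to 62.9)), Gpm6a (20.2-fold (17.9 to 22.9)), Cav1 (4.57-fold (4.23 to 4.94)) and the shared duct gene Krt19, and Podxl higher in the labelled library (5.15-fold (4.93 to 5.39)). Msln, mesothelin, was not called at 1.55 and 1.05 CPM. Erythroid genes were called in 3 of 10, with carbonic anhydrase Car2 9.67-fold (8.79 to 10.7) higher in the CD45- library and the globin genes Hbb-bs (3.797-fold (2.101 to 7.21)) and Hba-a1 (4.35-fold (2.29 to 8.86)) higher in the labelled library. The 5 sex-linked genes were not called.

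Scavenger and lectin receptors, the clearance machinery of sinusoids, were called higher in the labelled library in 16 of 22 and lower in 2. Of the 22, 8 are on an endothelial list; of the other 14, 8 were called higher in the labelled library. The fatty acid and thrombospondin receptor gene Cd36 stood at 171 CPM in the CD45- library, 2784 in the labelled library, 1143 in the Prom1- sort and 2229 in the presorted cells and the mannose receptor gene Mrc1 at 10.9 CPM in the CD45- library, 1786 in the labelled library, 317 in the Prom1- sort and 1288 in the presorted cells. Fcgr2b, the inhibitory Fc receptor that sinusoidal cells use to clear immune complexes, was 167-fold (150.1 to 186) higher, and Stab1 172-fold (155 to 192) higher. Scara3 and Lrp1 (13.01-fold (11.2 to 15.2)) were higher in the CD45- library. Lysosome and endocytosis genes were called higher in the labelled library in 14 of 25, with the proteases Ctsb at 4.81-fold (4.73 to 4.88) and Ctsl at 7.02-fold (6.83 to 7.205), Psap at 2.53-fold (2.48 to 2.57), and the membrane proteins Lamp1 at 2.48-fold (2.43 to 2.53) and Lamp2 at 2.52-fold (2.48 to 2.57). The tetraspanin gene Cd63 was the 1 member called the other way, 5.18-fold (4.896 to 5.47).

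Vessel growth genes were mostly on the labelled side. Of 18 compared VEGF, angiopoietin and semaphorin genes, 13 were called higher in the labelled library and 3 higher in the CD45- library, at a median of -4.95. Of the 18, 6 are on an endothelial list; of the other 12, 7 were higher in the labelled library and 3 in the CD45- library, at a median of -1.74. The ligands Vegfa and Angpt1 were on the CD45- side, while the ligands Vegfc (2.74-fold (2.203 to 3.42)) and Angpt2 (27.9-fold (21.1 to 37.7)), named after their values were seen, were on the labelled side. Vegfa stood at 272 CPM in the CD45- library, 21.1 in the labelled library, 35.7 in the Prom1- sort and 52.1 in the presorted cells, 12.8-fold (11.8 to 14.1) higher, and Angpt1, the ligand of Tie2, at 109 CPM in the CD45- library, 3.87 in the labelled library, 11.9 in the Prom1- sort and 15.6 in the presorted cells. The receptors were on the labelled side as well, with Kdr as above, the neuropilin co-receptor gene Nrp1 at 34.4-fold (32.8 to 36.1), Tek, which encodes Tie2, at 147-fold (127 to 169.8) and Tie1 at 108-fold (94.3 to 124). Plxnb1, a semaphorin receptor, was higher in the CD45- library at 34.4-fold (28.1 to 42.4) and Plxnc1 higher in the labelled library.

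Notch genes showed the same kind of division. Of 17 compared, 5 were called higher in the CD45- library and 7 higher in the labelled library. Jag1, the ligand tied to bile duct formation, stood at 506 CPM in the CD45- library, 102 in the labelled library, 165 in the Prom1- sort and 190.1 in the presorted cells, 4.96-fold (4.75 to 5.17) higher in the CD45- library, and the target gene Hes1 at 949 CPM in the CD45- library, 224 in the labelled library, 581 in the Prom1- sort and 218 in the presorted cells, 4.23-fold (4.11 to 4.35) higher. Notch2, the receptor of duct development, named after its value was seen, was 12.9-fold (9.66 to 17.6) higher there. Notch1 (13.4-fold (11.9 to 15.2)), Notch4 (70.5-fold (54.9 to 91.9)), the ligands Dll4 and Dll1 (4.71-fold (4.18 to 5.32)), the fringe genes Lfng (15.2-fold (10.5 to 22.7)) and Mfng (77.4-fold (46.7 to 139)) and Nrarp (7.22-fold (6.37 to 8.21)) were higher in the labelled library. Rbpj, the shared nuclear partner, was not called at 44.4 and 37.9 CPM.

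BMP and TGF-beta genes were called higher in the CD45- library in 8 of 27 and in the labelled library in 13. Bmp2, a ligand by which sinusoidal cells control hepatocyte iron sensing, stood at 14.3 CPM in the CD45- library, 2196 in the labelled library, 294 in the Prom1- sort and 1503 in the presorted cells, 154-fold (141 to 169) higher in the labelled library. The receptors Tgfbr2 (9.96-fold (9.46 to 10.5)) and Tgfbr3 (50.4-fold (44.9 to 56.7)) and the inhibitor of differentiation Id3 (2.24-fold (2.19 to 2.28)) were on that side too. On the CD45- side stood the ligands Tgfb2 (19.01-fold (15.1 to 24.3)), Tgfb3 (20.3-fold (16.2 to 25.7)), Inhba (25.4-fold (18.3 to 36.5)), Bmp4 (4.22-fold (2.51 to 7.53)) and Gdf15 (46.2-fold (25.6 to 92.9)), the receptor Bmpr1a (26.3-fold (22.2 to 31.4)), and Id1 (4.99-fold (4.68 to 5.32)) and Id2 (12.3-fold (11.9 to 12.7)). Id2 stood at 1661 CPM in the CD45- library, 135 in the labelled library, 1174 in the Prom1- sort and 345 in the presorted cells, highest in the CD45- library and lowest in the labelled library.

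Wnt genes were called higher in the CD45- library in 9 of 23 and in the labelled library in 6, at a median of 0.33. The labelled library held the ligands that vein-side endothelium makes for hepatocytes, Wnt2 at 1.63 CPM in the CD45- library, 168 in the labelled library, 235 in the Prom1- sort and 109 in the presorted cells, Wnt9b (49.7-fold (32.6 to 79.8)) and the amplifier gene Rspo3 (9.56-fold (7.11 to 13.1)). Rspo3 was highest in the Prom1- sort, at 362 CPM. The receptor Fzd4 (6.104-fold (5.64 to 6.62)), the feedback gene Nkd1 (82.3-fold (53.6 to 133)) and Dkk3 (5.59-fold (4.63 to 6.81)) were also higher in the labelled library. Wnt4, a ligand, stood at 87.5 CPM in the CD45- library, 10.3 in the labelled library, 30.2 in the Prom1- sort and 12.5 in the presorted cells, 8.52-fold (7.496 to 9.72) higher in the CD45- library. Rnf43 (61.6-fold (33.4 to 129)), which removes Wnt receptors, and Wnt7b (46.4-fold (30.8 to 73.4)), both named after their values were seen, were on that side. Ctnnb1, beta-catenin, was not called at 359 and 279 CPM, nor were Fzd6 and Tcf7l2, and the target gene Axin2, at 0.146 and 0.524 CPM, lay under the chemosensory background.

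YAP and TEAD target genes were called higher in the CD45- library in 9 of 17 and lower in 5, at a median of 1.39. YAP is a coactivator that responds to cell contact and injury and acts through TEAD factors. Ccn1 stood at 1706 CPM in the CD45- library, 74.1 in the labelled library, 747 in the Prom1- sort and 120.3 in the presorted cells, 23.01-fold (21.97 to 24.1) higher, and Ccn2 at 974 CPM in the CD45- library, 189.9 in the labelled library, 352 in the Prom1- sort and 309 in the presorted cells, 5.13-fold (4.97 to 5.29) higher. Wwc1 was 56.6-fold (50.1 to 64.1) higher. Amotl1 (2.59-fold (2.49 to 2.69)), Lats2 (2.21-fold (2.11 to 2.33)), Crim1 (3.02-fold (2.87 to 3.19)), Axl (25.2-fold (16.9 to 39.4)) and Birc5 (2.81-fold (2.38 to 3.34)) were higher in the labelled library, and Amotl2 was not called. The TEAD letters were in 7 of the 12 windows of the list, against 11.3% of all windows. Of these 7, Ankrd1, Ccn1, Ajuba and Ptpn14 were called higher in the CD45- library, Axl and Crim1 higher in the labelled library, and Amotl2 was not called, so the match did not go with 1 direction.

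**Figure D5:**
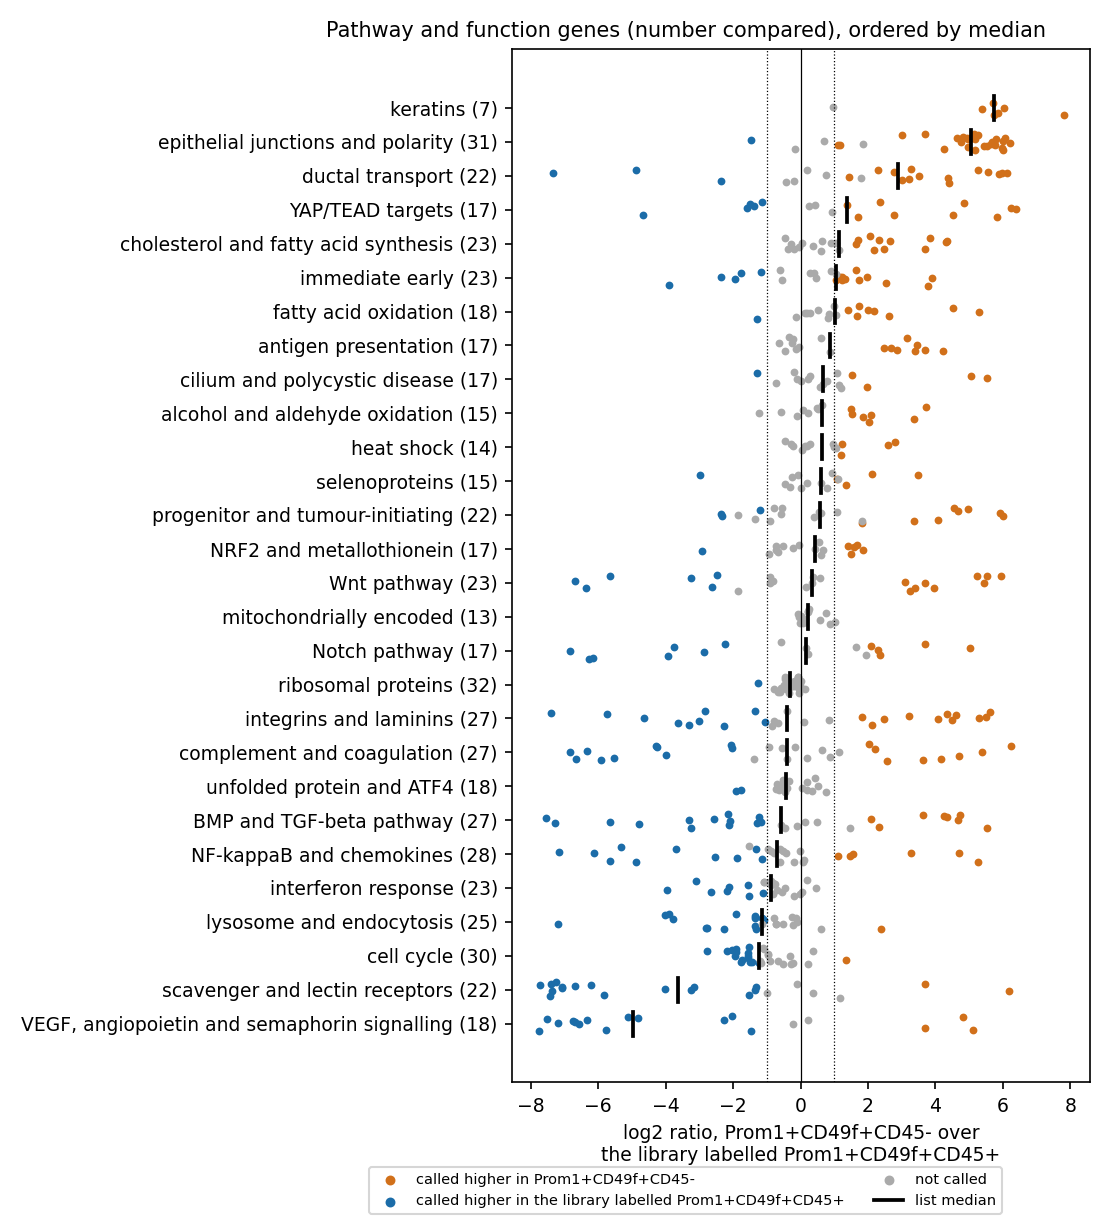
Log2 ratio of each compared member of the pathway lists, CD45- over labelled, ordered by list median (black bars); points are genes coloured by call and dotted lines mark 2-fold. Keratin and junction genes lie right and the scavenger receptor and VEGF lists left, Wnt, Notch, integrin and BMP genes lie on both sides, and the mitochondrially encoded genes, with none called, stay near 0.

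Integrins and basement membrane genes were split 11 to 10 over 27 members. The CD45- library had, among others, the laminin chains Lamb3 (45.6-fold (25.9 to 88.6)), Lamc3 (49.3-fold (43.1 to 56.8)), Lamb1 (5.61-fold (4.26 to 7.504)) and the integrins Itgb4 (16.7-fold (13.6 to 20.7)), Itgb6 (9.38-fold (7.904 to 11.2)), Itgb8 (20.2-fold (16.5 to 24.8)), Itga3 (24.3-fold (20.9 to 28.6)), Itgb5 (22.3-fold (19.5 to 25.6)), Itgav (4.301-fold (4.05 to 4.57)) and Itga2 (3.52-fold (2.67 to 4.6997)). Itgb4 is the partner of integrin alpha 6 in hemidesmosomes and stood at 65.3 CPM in the CD45- library, 3.91 in the labelled library, 15.1 in the Prom1- sort and 12.6 in the presorted cells, highest in the CD45- library. The labelled library had the collagen IV genes Col4a1 (8.11-fold (7.88 to 8.35)) and Col4a2 (9.85-fold (9.43 to 10.3)), Nid1 (25.1-fold (23.2 to 27.3)), Lama4 (2.53-fold (2.44 to 2.63)) and Itga9 (7.103-fold (6.85 to 7.37)). Itgb1, the other partner of integrin alpha 6, was not called at 518 and 932 CPM. Although Itga6 itself was not called, its 2 partners thus differed in their calls. Of 17 cilium and polycystic disease genes 4 were called higher in the CD45- library, led by Bicc1 (46.6-fold (41.7 to 52.2)) and the duct gene Pkhd1 (33.1-fold (28.8 to 38.2)), and Pkd1 higher in the labelled library (2.43-fold (2.19 to 2.698)). Pkd2, Sec63, Ganab and Prkcsh were not called.

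Immediate early genes, which cell stress and tissue digestion induce, were called higher in the CD45- library in 11 of 23 and lower in 5. Atf3 stood at 1344 CPM in the CD45- library, 90.1 in the labelled library, 353 in the Prom1- sort and 39.9 in the presorted cells, 14.9-fold (14.3 to 15.6) higher, Egr1 at 1693 CPM in the CD45- library, 683 in the labelled library, 683 in the Prom1- sort and 289 in the presorted cells and Jun at 3552 CPM in the CD45- library, 1718 in the labelled library, 1615 in the Prom1- sort and 1007 in the presorted cells. Atf3 and Egr1 were higher in all 3 sorted libraries than in the presorted cells, which were not sorted. Over the list the labelled library was above the presorted cells in 21 of 23 members and the CD45- library in 17. The share of all genes above the presorted cells was not counted. Klf2, the shear stress factor of endothelium, stood at 36.5 CPM in the CD45- library, 550.1 in the labelled library, 729 in the Prom1- sort and 411 in the presorted cells, 15.1-fold (14.2 to 15.97) higher in the labelled library, with Socs3 (2.26-fold (2.21 to 2.303)), Ier5 (3.85-fold (3.52 to 4.21)) and Nr4a2 (3.39-fold (2.699 to 4.28)). Dusp1 was not called. Heat shock genes were called higher in the CD45- library in 4 of 14 and lower in none, and Hspa8, Hspa5, Hsp90ab1 and Dnaja1 were not called. Unlike the immediate early list, the labelled library was above the presorted cells in only 2 of these 14 and the CD45- library in 5. What part dissociation had in these differences was not tested.

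Inflammatory signals were split by gene. Of 28 NF-kappaB and chemokine genes 6 were called higher in the CD45- library and 10 higher in the labelled library. Cx3cl1 (38.5-fold (24.5 to 64.3)), the neutrophil chemokine genes Cxcl5 (26.1-fold (16.6 to 43.6)) and Cxcl1 (2.15-fold (2.002 to 2.32)), Ccl20 (9.66-fold (3.08 to 48.8)), Cxcl12 (2.75-fold (2.49 to 3.03)) and the regulator Nfkbiz (2.96-fold (2.87 to 3.05)) were on the CD45- side. Nfkbiz stood at 571 CPM in the CD45- library, 193 in the labelled library, 131 in the Prom1- sort and 39.5 in the presorted cells, and was lowest in the presorted cells. The alarmin gene Il1a stood at 2.68 CPM in the CD45- library, 382 in the labelled library, 286 in the Prom1- sort and 193 in the presorted cells, 142-fold (116 to 177) higher in the labelled library, and Cxcl16 was 2.502-fold (2.4004 to 2.61) higher. Nfkbia, Rela and the adhesion gene Vcam1 were not called. Interferon response genes were called higher in the labelled library in 8 of 23 and lower in none, with Ifitm3 at 2.93-fold (2.85 to 3.02) and Ifit2 at 4.38-fold (4.16 to 4.62), while Irf1 and Irf9 were within 2-fold.

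Antigen presentation genes divided by class. The 8 members called, all higher in the CD45- library, were class II genes, their regulator Ciita, and Cd1d1, whereas the class I genes H2-D1 (3790.3 and 4192 CPM), H2-K1 (2454 and 1614), B2m, Tap2 and Tapbp were not called. Ciita was 8.87-fold (6.21 to 13.1) higher and Cd1d1 6.41-fold (5.57 to 7.397) higher, both named after their values were seen. Beside these class II calls, the pan-leukocyte list was mostly higher in the labelled library, with a summed level of 79.5 CPM in the CD45- library. Its member Ptpn6, and Csf1r of the macrophage list, were on the side of the class II genes. Which cells the class II RNA came from was not tested.

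Complement and coagulation genes were called on both sides. Of 27 compared, 8 were called higher in the CD45- library, C3, C4b (18.1-fold (16.6 to 19.8)), Cfb (12.5-fold (11.7 to 13.3)), C2 (4.61-fold (4.26 to 4.99)), C9 (5.93-fold (4.52 to 7.91)), Proc (41.3-fold (35.6 to 48.1)), tissue factor F3 (75.8-fold (55.6 to 106)) and Plat (4.12-fold (3.403 to 5.03)), and 10 higher in the labelled library. F8, the factor VIII that liver endothelium makes, stood at 10.1 CPM in the CD45- library, 1148 in the labelled library, 283 in the Prom1- sort and 779 in the presorted cells, 113-fold (102 to 126) higher in the labelled library, and Tfpi, the tissue factor inhibitor, at 10.1 CPM in the CD45- library, 612 in the labelled library, 221 in the Prom1- sort and 415 in the presorted cells, 60.4-fold (54.3 to 67.4) higher. Tissue factor and its inhibitor were thus on opposite sides.

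Metabolic lists leaned to the CD45- library. Cholesterol and fatty acid synthesis genes were called higher there in 11 of 23 and lower in none, at a median of 1.14, or 0.88 with the deposited normalized values. Srebf1, the lipogenic factor, stood at 175 CPM in the CD45- library, 56.2 in the labelled library, 37.7 in the Prom1- sort and 115 in the presorted cells, 3.11-fold (2.93 to 3.29) higher. The squalene enzyme gene Sqle (12.99-fold (11.001 to 15.4)), named after its value was seen, was on the same side, while Scd2, Acly, Elovl5, Elovl1 and Hmgcs1 were not called. Fatty acid oxidation genes were called higher in 8 of 18 and lower in 1, with Acadvl 3.21-fold (3.04 to 3.39) higher and Pdk4 2.45-fold (2.29 to 2.62) higher in the labelled library. Alcohol and aldehyde oxidation genes were called higher in 7 of 15 and lower in none, with catalase, Cat, at 2.82-fold (2.72 to 2.92) and Aldh1a1 at 10.4-fold (9.24 to 11.7). Aldh2, the main acetaldehyde enzyme, was not called at 197 and 296 CPM, and Cyp2e1, the microsomal ethanol oxidase, named after its value was seen, was not called at 32.2 and 30.5. Beside these calls stands the hepatocyte plasma protein sum, 19001 CPM in the CD45- library and 1462 in the labelled library, whose part in them was not tested.

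Stress defence lists had medians within 2-fold, at log2 ratios of 0.42 (NRF2 and metallothionein), -0.43 (unfolded protein) and 0.62 (selenoproteins). Over all compared genes 13.0% were called higher in the CD45- library and 13.5% in the labelled library. NRF2 and metallothionein genes were called higher in the CD45- library in 5 of 17, Gstm1 (3.01-fold (2.93 to 3.09)), Gstp1 (2.65-fold (2.55 to 2.74)) and Gclm (3.204-fold (3.05 to 3.37)) among them, and lower in 1, Hmox1 (7.5005-fold (6.58 to 8.58)), the haem oxygenase. Unfolded protein genes were called in 2 of 18, both higher in the labelled library, which is near the share of all genes. Hspa5, Hsp90b1, Pdia4, Xbp1, Pdia6 and Calr were not called. Selenoprotein genes were called higher in the CD45- library in 4 of 15 and lower in 1. That 1, Selenop, the selenium carrier of plasma, stood at 1169 CPM in the CD45- library, 9144 in the labelled library, 3455 in the Prom1- sort and 8422 in the presorted cells. It was 7.82-fold (7.74 to 7.91) higher in the labelled library, where it held the most counts of any gene. Igfbp7, an endothelial secreted protein also among the 10 with the most counts there, was 4.97-fold (4.905 to 5.04) higher.

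Cell cycle genes were called higher in the labelled library in 15 of 30 and lower in 1, at a median of -1.22. Mcm3, a replication helicase subunit, was 6.87-fold (6.23 to 7.603) higher, and Ccnd3, cyclin D3, 2.92-fold (2.77 to 3.08) higher. Ccnd1, cyclin D1, the G1 cyclin, stood at 147 CPM in the CD45- library, 57.6 in the labelled library, 65.8 in the Prom1- sort and 64.1 in the presorted cells and was 2.55-fold (2.402 to 2.704) higher in the CD45- library. Ccnd2, Mcm6 and Tyms were not called. The labelled library was above the presorted cells in 8 of 30 members, a count not set against the share over all genes. Of 32 ribosomal protein genes 1 was called, Rps6, 2.38-fold (2.33 to 2.43) higher in the labelled library, and of 13 mitochondrially encoded genes none, at a median of 0.21. Eef1a1 (4332 and 5287 CPM), which every cell uses, was not called either.

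Gene length moved weakly with the ratio. Over 11406 protein-coding genes with 50 or more counts in both libraries the Spearman correlation of length and log2 ratio was -0.13, and genes share the same 2 libraries. The median log2 ratio was 0.18 for the shortest eighth of genes and -0.23 for the longest eighth, which is small beside the duct and endothelial medians.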

How the data were processed

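RNA of 4 liver cell populations was sequenced, 1 library each from 2 pooled mice. Per the labels' protocols, RNA was polyA selected and made into stranded libraries. The series title names Quant-seq, and the 2 statements were not reconciled. Per the submitters' processing notes, TopHat2 and Partek were used with build mm10. The deposited estimated counts per gene hold fractions, and 50.5% to 60.5% of values are whole, and they were rounded here. The authors also deposited CPM values with 1 added, per the file itself, on a total of which the deposited counts make up 67.1% to 88.4%. Gene symbols came from GENCODE vM21 for 40254 of 41128 identifiers; the other 874 held at most 0.365% of a library.

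Counts were scaled with TMM factors (edgeR 4.0.16) over the 4 libraries. Ratios were given exact 95% conditional binomial (Clopper-Pearson) intervals from scipy 1.17.1. The code was checked on simulated Poisson counts, the model that the intervals assume, so this check cannot show how they hold on these libraries. A call needs the whole interval beyond 2-fold. Poisson intervals on levels are exact. With 1 library a side no test was run, and no sample or column was left out. The 3 sorts were matched to columns by population number, and the column headed CD45 was taken as the presorted CD45- cells by its name and because no other population was left.

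Genes are compared at 10 or more counts in either library. The 49 gene lists and the members were chosen with earlier results of these data known. Genes are named by rule: the gate genes, the 15 farthest from 1 per direction with 100 or more counts in the higher library (predicted genes, pseudogenes, immune receptor segments, ribosomal, histone and chemosensory genes aside), the 6 members of highest mean level in each list and those called against its median, the 10 with the most counts, 5 with 0 counts per direction, and those nearest the bound. Others are marked as chosen after their values were seen. Alternatives were other scalings (DESeq2 1.42.0 size factors, totals, TMM over the 2 libraries, the deposited normalized values), other filters and bounds, and removal of a length trend. A few genes that this rule names are not reported here.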

Additional observations from a re-analysis of the deposited data

How the results depend on the processing

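No paired analysis was possible because each group had 1 library, and for the same reason no library could be left out. Genes higher in the CD45- library numbered 2711, and 2191 to 2969 over the 4 other scalings. Genes higher in the labelled library numbered 2818, and 2552 to 2926. Against the TMM scaling over 4 libraries, the deposited normalized values moved the median log2 ratio by -0.21 and TMM over the 2 libraries by 0.13. The share of calls on the CD45- side was 49.0% and ran from 42.8% (deposited normalized values) to 53.8% (TMM over the 2 libraries). With the interval beyond 4-fold, 1544 and 1439 genes were called, a number that the stricter bound itself lowers. The other filters gave 2444 to 2711 and 2282 to 2890, and removal of the length trend 2606 and 2901. Prom1 kept its call at 24.3-fold to 34.0-fold. The Ptprc ratio, CD45- over labelled, was 0.435 and not called; with the deposited normalized values, taken as a ratio with no interval, it was 0.4188 and beyond 2-fold, because that alternative has no interval to cross the bound. Of the 49 list medians 21 lay above 0, and 19 to 22 under the alternatives. No list median beyond 2-fold changed sign, but 7 fell within 2-fold with the deposited normalized values: B and plasma cell (-0.93), mast cell (-0.66), megakaryocyte (-0.80), portal fibroblast (-0.45), immediate early (0.66), cholesterol and fatty acid synthesis (0.88) and fatty acid oxidation (0.79). The same values moved the duct, vein and artery, and junction medians to 4.996, -3.06 and 4.28. They differ from the other scalings in that 1 was added to each CPM, which draws ratios of genes near or under 1 CPM toward 1. The portal fibroblast median fell within 2-fold under every alternative for which list medians were taken. B and plasma cell also did with 50 or more counts (-0.82). Immediate early (0.94) and fatty acid oxidation (0.95) did with the length trend removed. With 50 or more counts the vein and artery median was -4.63, and those of the erythroid (1.07), mesothelium (3.26), alcohol oxidation (1.49) and progenitor (1.81) lists lay beyond 2-fold. The cause was not tested. Of 886 genes on a list or named, 832 to 872 kept their call over the 4 scalings and none was called in the opposite direction. Depth limits genes under 1 CPM, of which 11.7% were called.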

Other observations

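Several unnamed or predicted genes carried many counts. Gm26870 stood at 4974 CPM in the CD45- library, 2908 in the labelled library, 14876 in the Prom1- sort and 44.4 in the presorted cells. Gm10800 stood at 4624, 2643, 14134 and 36.3 CPM in the same libraries. Both were low in the presorted cells and high in all 3 sorted libraries, and neither was called between the CD45- and the labelled library. Gm13301 had 0 counts in the CD45- library and 656 in the labelled library, at least 302-fold higher, and Gm10600 had 0 and 450, at least 207-fold higher. Such predicted genes can share reads with near-identical copies. Hoxa2, a homeobox factor gene, had 0 counts in the CD45- library and 252 in the labelled library, at least 116-fold higher, and Atg9b had 0 and 157, at least 72.3-fold higher.

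By gene class, 29.7% of 16432 protein-coding genes were called, 2515 higher in the CD45- library and 2367 in the labelled library. Of 1017 processed pseudogenes 19 were called higher in the CD45- library and 99 in the labelled library, and of 1018 lincRNA genes 38 and 87. These are 11.6% and 12.3% called in either direction, less than the 26.4% over all compared genes. Over all genes 13.0% were called higher in the CD45- library and 13.5% in the labelled library. All 6 compared immunoglobulin constant genes were called higher in the labelled library, and 9 of 14 small nuclear RNA genes higher in the CD45- library, with 1 lower.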
